A study of Rattus norvegicus with 30 samples.

Results

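The genes described here encode the nuclear subunits of oxidative phosphorylation, the respiratory chain of the inner mitochondrial membrane and its ATP synthase. Members were taken by symbol from the platform annotation: the Nduf subunits of complex I without the Ndufaf assembly factors, Sdha to Sdhd, the Uqcr genes with Cyc1, the Cox4 to Cox8 families, and all Atp5 genes. Only probe sets annotated to a single gene were used, and where a gene had several, the brightest one on average over the 30 arrays stood for it. This gave 80 genes of 14217 measured: 35 of complex I, 4 of complex II, 8 of complex III, 17 of complex IV and 16 of complex V. Complexes were assigned by symbol alone, so Ndufa4, now counted as a cytochrome oxidase subunit, stands with complex I, and Atp5if1, an inhibitor rather than a subunit of ATP synthase, stands with complex V.

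The study exposed primary rat hepatocytes to beta-naphthoflavone (BNF), a synthetic flavone that activates the aryl hydrocarbon receptor (AhR). Cells from male Sprague Dawley rats, bought frozen, were thawed, plated on collagen under a Matrigel overlay and dosed on day 3 of culture with vehicle (labelled 1% DMSO), 1 µM BNF or 100 µM BNF, and RNA was taken 24 h or 48 h later. Each of the 6 groups had 5 arrays, 30 in all, and each array was taken here as a separate well. All groups, vehicle included, share the freezing, thawing and Matrigel culture. The labels give a DMSO level for the vehicle arrays alone, so whether the BNF wells held the same level is not known from them. The labels tie no array to an animal or a batch of cells. The p-values measure the spread between the arrays of a group, and whether that includes a spread between animals is not known. Age of the rats and pooling of donors were not given in the sources used here.

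Complex I takes electrons from NADH and complex II, which is also the succinate dehydrogenase of the citric acid cycle, takes them from succinate. Ubiquinone carries them to complex III and cytochrome c to complex IV, which reduces oxygen, and ATP synthase (complex V) uses the proton gradient that results. Hepatocytes are rich in mitochondria, and the nuclear subunit genes are transcribed at high levels in them; promoters of many such genes carry sites for NRF1, ETS factors, YY1 and estrogen-related receptors.

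Cyp1a1, the classical AhR target, served as the check of exposure. At 24 h its mean signal was 11832 with vehicle, 44100.4 after 1 µM and 59383 after 100 µM BNF. At 48 h the corresponding means came to 9525, 22607 and 50727, and the gene was called higher in all 4 comparisons with vehicle. Of 8 AhR battery genes, 4 and 6 were called higher at 1 µM and 100 µM at 24 h, and 3 and 5 at 48 h. Alb, Ttr and Apoa1, defining hepatocyte products, had group means of at least 45826 in every group. Of the 11 hepatocyte markers measured, which include these genes, 7 were called lower and 0 higher at 100 µM, 48 h. Group means of Cps1, another of them, ran from 22084 to 54640. The array of 100 µM BNF at 48 h, replicate 1, was the lowest of its group over the members. Its mean log2 signal over the 75 brighter member genes was 13.93, against 14.01 to 14.10 on the other 4 arrays of that group. Counts of calls at 100 µM, 48 h, are also given without it.

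Promoters are shown for 4 members that carry the pattern described in what follows: Ndufa6 and Cox8a, called lower at 100 µM BNF at both times, Uqcrc2, called lower at 48 h, and Atp5if1, the member called higher. The sequences are the 250 bases before the transcription start in RefSeq (build GRCr8), written 5′ to 3′ along the gene. Capitals mark matches, on either strand, to GCGTG (the core of the AhR response element), GCATGCGC (NRF1), CCGGAAG (ETS factors), AAGGTCA (estrogen-related receptors) or AAGATGGC (YY1).
Ndufa6, chr7:115750318-115750567 (- strand): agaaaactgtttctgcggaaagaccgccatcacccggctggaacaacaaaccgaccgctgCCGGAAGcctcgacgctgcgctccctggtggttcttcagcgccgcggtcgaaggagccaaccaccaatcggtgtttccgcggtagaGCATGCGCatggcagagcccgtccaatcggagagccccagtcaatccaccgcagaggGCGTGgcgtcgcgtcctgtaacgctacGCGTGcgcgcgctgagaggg
Uqcrc2, chr1:184598990-184599239 (+ strand): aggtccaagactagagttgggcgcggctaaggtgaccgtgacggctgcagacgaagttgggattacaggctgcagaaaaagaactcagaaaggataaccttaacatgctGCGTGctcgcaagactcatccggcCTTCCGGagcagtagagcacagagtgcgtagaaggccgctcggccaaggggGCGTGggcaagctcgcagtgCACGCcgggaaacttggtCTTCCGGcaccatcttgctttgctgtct
Atp5if1, chr5:150026678-150026927 (- strand): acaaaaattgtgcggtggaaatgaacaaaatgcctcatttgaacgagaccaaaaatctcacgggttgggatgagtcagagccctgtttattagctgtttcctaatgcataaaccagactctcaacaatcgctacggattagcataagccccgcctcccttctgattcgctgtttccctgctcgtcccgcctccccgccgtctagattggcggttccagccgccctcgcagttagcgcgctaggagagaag
Cox8a, chr1:213833624-213833873 (- strand): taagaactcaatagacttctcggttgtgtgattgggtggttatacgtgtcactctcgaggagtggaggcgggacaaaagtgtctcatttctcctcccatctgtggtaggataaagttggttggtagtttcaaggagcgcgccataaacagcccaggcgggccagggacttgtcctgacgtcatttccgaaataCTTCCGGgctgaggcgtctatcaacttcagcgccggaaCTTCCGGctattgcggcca
The Ndufa6 stretch held matches to the AhR core, NRF1 and ETS letters, Uqcrc2 to the AhR core and ETS letters, and Cox8a to the ETS letters. The Atp5if1 stretch held none of the 5 motifs. In the table's full windows, which reach 50 bases past the start, Atp5if1 had 1 match to the AhR core, Ndufa6 also matched the YY1 letters, and Cox8a the YY1 and estrogen-related receptor letters.

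Over the table's full windows of 300 bases (50 of them after the start), 71 of the 80 members had a promoter. The ETS letters occurred in 28.2% of the members' windows and in 9.22% of all 27457 windows, the YY1 letters in 22.5% and 3.44%, the estrogen-related receptor letters in 15.5% and 4.37%, and the NRF1 letters in 9.86% and 2.66%. GCGTG, a short motif, was found in 46.5% of members and 31.1% of all windows. Among members called lower at 100 µM at either time (32 with a promoter) GCGTG occurred in 53.1%, and among the other 39 in 41.0%; the ETS letters occurred in 34.4% and 23.1%, the NRF1 letters in 6.25% and 12.8%. These shares describe letters in a window; base composition differs between windows and was not matched.

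At 100 µM BNF, some subunit genes of each of the 5 complexes were lower than in vehicle at both times, by small amounts, and a single member was higher. At 24 h, 25 of 80 members were called lower (limma, Benjamini-Hochberg adjusted p under 0.05 over all 14217 genes) and 1 higher, where 21.1% of all genes were called, 10.4% lower and 10.7% higher. At 48 h, 26 were called lower and 1 higher, where 17.4% of all genes were called, 8.62% lower and 8.79% higher. Without replicate 1 of 100 µM, 48 h, 15 were lower and 1 higher. The shares of all genes given here come from the fit with that array, and those without it are not given. The median log2 fold change over the members was -0.09 at 24 h and -0.13 at 48 h, and over all genes 0.04 and 0.02. Estimates were below 0 for 72 and 76 of the 80 members; the 5 vehicle and the 5 treated arrays did not overlap, with the treated arrays lower, for 23 and 24 members (7.92% and 6.68% of all genes), and higher for 1 at each time (6.89% and 6.66%). The members' median was also below 0 in all 4 comparisons with vehicle after quantile normalization or median centring of the arrays. The counts were less stable. With arrays centred on their median, 14 of 80 members were called at 100 µM, 48 h, in place of 27, and 2466 of all 14217 genes. The difference of these shares was not tested.

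Most members had bright probe sets with a small spread between the arrays of a group. The median pooled SD was 0.08 on the log2 scale over the members and 0.22 over all genes. Among the brightest probe sets, 22 of the 65 members above the 90th percentile of gene means were called lower at 24 h, against 243 of 1350 other genes above it, and 1 member was called higher against 386 of those genes. At 48 h the counts were 25 of 65 lower against 253 of 1350, and 1 higher against 299. Medians over these bright members were -0.09 and -0.13 on the log2 scale, and over the other bright genes 0.05 and 0.02.

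**Figure D1:**
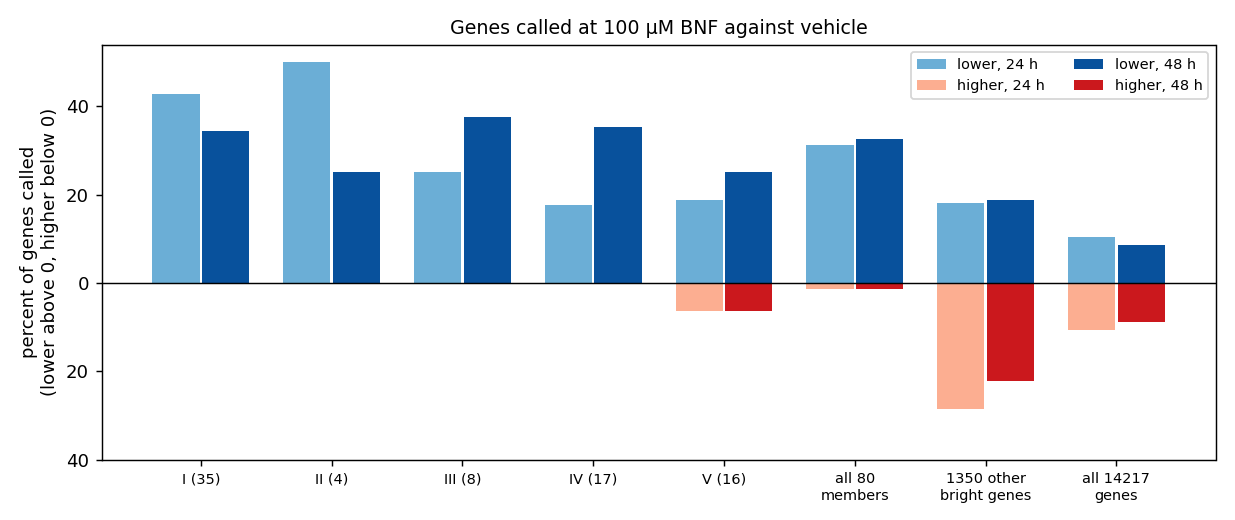
Percent of genes called lower (bars above 0) and higher (bars below 0) at 100 µM BNF against vehicle, at 24 h and 48 h, for each complex (number of genes in brackets), all 80 members, 1350 other genes above the 90th percentile of mean signal, and all 14217 genes. All 5 complexes have genes called lower at both times, and the only member called higher, Atp5if1, is counted with complex V.

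The mean over these bright members was lower at 100 µM than in vehicle on every array at both times, with or without replicate 1 of 100 µM at 48 h. At 24 h the mean log2 signal of the 65 members was 14.56 ± 0.03 (SD, n = 5) in vehicle, 14.52 ± 0.06 at 1 µM and 14.46 ± 0.05 at 100 µM. After 48 h it was 14.52 ± 0.04, 14.42 ± 0.06 and 14.39 ± 0.08. Over the 1350 other genes it lay between 14.05 and 14.10 in all 6 groups. The 1 µM arrays overlapped vehicle at both times. At 24 h vehicle ran from 14.52 to 14.60, 1 µM from 14.44 to 14.57 and 100 µM from 14.38 to 14.51; at 48 h they ran from 14.47 to 14.55, 14.35 to 14.49 and 14.27 to 14.45.

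**Figure D2:**
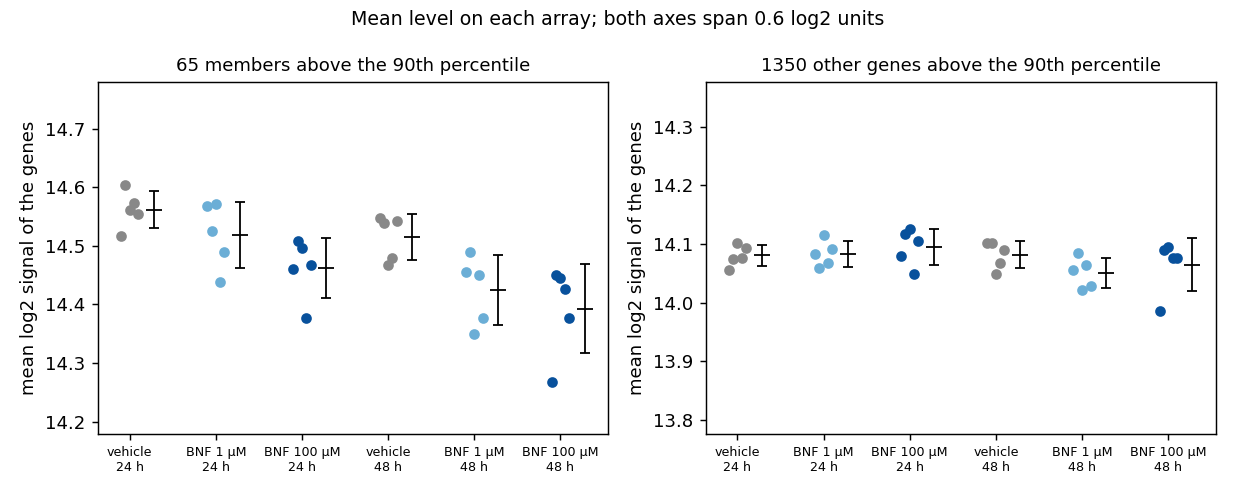
Mean log2 signal on each array of the 65 member genes (left) and the 1350 other genes (right) above the 90th percentile of gene means, by group; points are arrays, bars are the mean ± SD of 5. Member means step down from vehicle to 100 µM at both times, and the lowest point is replicate 1 of 100 µM at 48 h, which is also the lowest array for the other genes.

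**Figure D3:**
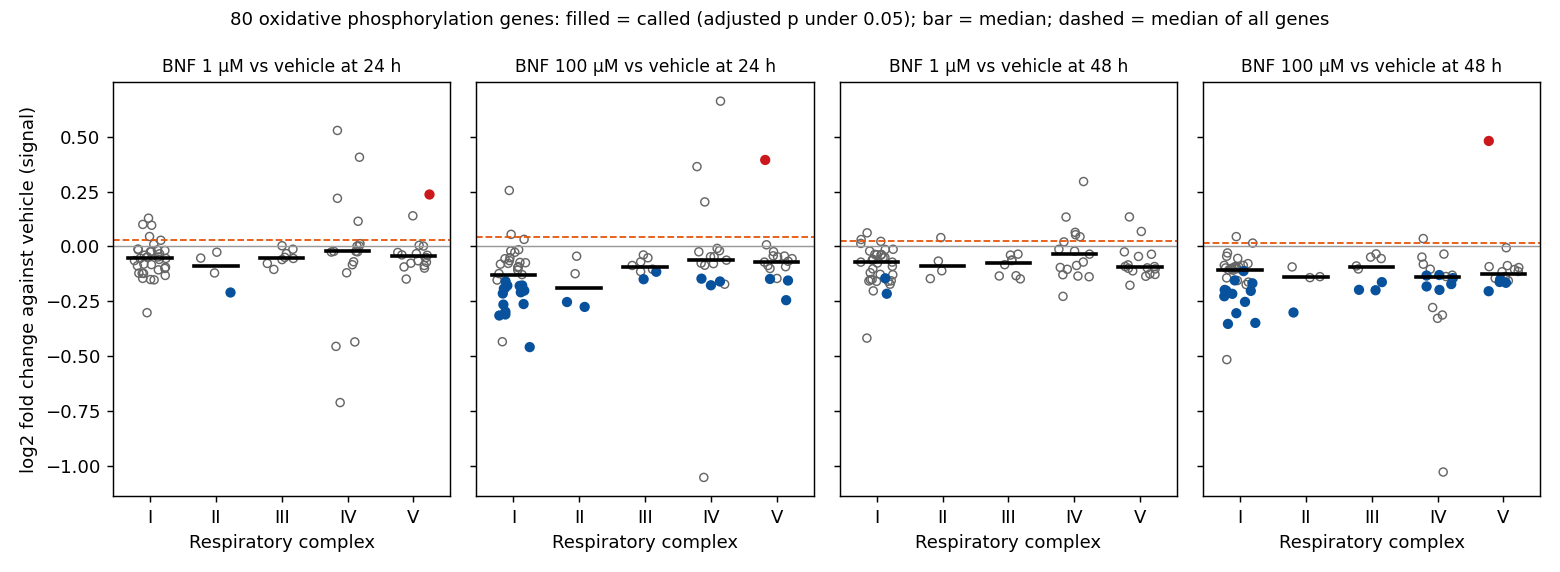
log2 fold change of signal against vehicle for the 80 members, by complex, for each dose and time; filled points were called (blue lower, red higher), open points were not, black bars are medians and the dashed line is the median of all genes. The open points farthest from 0 in complex IV are dim tissue isoforms, and the red point at both times of 100 µM and at 1 µM, 24 h, is Atp5if1.

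In complex I, the NADH dehydrogenase, 15 of 35 genes were lower at 24 h (42.9%) and 12 at 48 h (34.3%), with medians of -0.13 and -0.11. The shares called in the other complexes were from 17.6% to 50% at 24 h and from 25% to 37.5% at 48 h. Of all genes 21.1% were called at 24 h, 10.4% lower, and 17.4% at 48 h, 8.62% lower. The difference of each complex from these shares was not tested. Without replicate 1 of 100 µM, 48 h, the complex I count was 10. Its core subunits carry the flavin and the iron-sulfur clusters that pass electrons from NADH to ubiquinone. Of the 6 core genes measured (Ndufs1, Ndufs3, Ndufs7, Ndufs8, Ndufv1 and Ndufv2), 4 were called lower at 24 h and 5 at 48 h, with medians of -0.28 and -0.24 (3 at 48 h without that array, Ndufv1 and Ndufv2 losing their calls), and of the other 29 genes 11 and 7, with medians of -0.11 and -0.10. Ndufs1, which carries several of the clusters, was the core gene called at neither time (-0.03 and -0.04, adjusted p = 0.787 and 0.64, limma).

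Ndufs7 encodes the subunit with the last iron-sulfur cluster before ubiquinone. Its signals at 24 h were 15042, 17037, 16142, 17110.3 and 16087 in vehicle, 15455, 15511, 15319, 12797 and 14351 at 1 µM and 14275, 12716, 12989.8, 12365 and 13313 at 100 µM. At 48 h they were 16476, 15549, 15923, 14899 and 15929 in vehicle, 13232, 14655, 12461, 14254 and 13301 at 1 µM and 11321, 12466, 13082, 12401 and 12412 at 100 µM. Every 100 µM array lay below every vehicle array of its time. Ndufs7 was 1.24-fold lower at 24 h (log2 -0.31, 95% interval -0.42 to -0.20, adjusted p = 4.63e-05, limma) and 1.28-fold lower at 48 h (-0.35, -0.46 to -0.24, adjusted p = 8.35e-06).

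Ndufs3, a core subunit of the arm that reaches into the matrix, gave signals of 10102, 10088, 10685, 9712 and 10542 in vehicle at 24 h, 9522, 8970.1, 9669, 8554 and 9520.1 at 1 µM and 8622, 7840.4, 8949, 7686 and 9559.6 at 100 µM. After 48 h the values were 9899.9, 9655, 9811, 9533 and 10499 in vehicle, 9276, 9135, 7857, 9089.5 and 8978 at 1 µM and 7139, 8095, 8269, 7803 and 7509 at 100 µM. Both doses stood wholly below vehicle at both times, and the change was called at 100 µM, with 1.20-fold lower signal at 24 h (log2 -0.27, SE 0.055, adjusted p = 0.000475, limma) and 1.27-fold lower at 48 h (-0.35, adjusted p = 1.56e-05). At 1 µM the estimates were -0.15 and -0.16 (adjusted p = 0.136 and 0.209).

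Ndufv1 encodes the flavoprotein that takes the electrons from NADH. Vehicle arrays at 24 h read 10239.8, 10544, 10906, 10649 and 11559, 1 µM arrays 9253, 9756, 10378, 9342 and 9758 and 100 µM arrays 9145, 7979.9, 9399, 8232 and 9144. At 48 h vehicle read 11284, 10384, 9685, 9699.7 and 10592, 1 µM 9928, 10408, 9465, 9951 and 9666 and 100 µM 8719, 9307, 9456, 9313 and 9539. The 100 µM arrays lay below all vehicle arrays at both times, with larger differences at 24 h (1.23-fold lower, adjusted p = 2.22e-05, limma) than at 48 h (1.11-fold lower, adjusted p = 0.0237); the difference between the times was not called (adjusted p = 0.421). The 48 h call was lost without 100 µM replicate 1 (adjusted p = 0.0765, limma).

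Ndufs8, which holds a pair of clusters next to Ndufs7, had signals of 7302, 7353, 7579, 7182 and 7208 in vehicle, 7082, 7401, 6662, 6662 and 6673 at 1 µM and 6133, 4733, 6649.6, 6227 and 5879 at 100 µM at 24 h. At 48 h its signals were 6745, 6512, 6816, 6776 and 6981 in vehicle, 6826, 6808, 6134, 6739.9 and 6428 at 1 µM and 5528, 4556, 5881, 6173 and 5386 at 100 µM. The 1 µM arrays overlapped vehicle and the 100 µM arrays did not. The gene was 1.24-fold and 1.24-fold lower at 100 µM (adjusted p = 0.000759 and 0.00135, limma), and it was also lower at 100 µM than at 1 µM at both times (log2 -0.23 and -0.27, adjusted p = 0.0339 and 0.00673). Ndufv2, the remaining core gene, was called at 48 h (-0.17, adjusted p = 0.0308) and not at 24 h (-0.13, adjusted p = 0.102). Without 100 µM replicate 1 of 48 h the Ndufv2 call was lost (adjusted p = 0.136, limma).

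Accessory subunits of complex I surround the core and are needed for its assembly and stability. Ndufa6, whose promoter is printed above, read 21215, 22729.6, 23136, 22701 and 21013 in vehicle, 21879.7, 22204, 20994, 19777 and 21092 at 1 µM and 19213, 19866, 20089, 18877 and 19790.4 at 100 µM at 24 h. At 48 h it read 24436, 23378, 22874, 22707 and 24120.2 in vehicle, 21748, 22486, 20626, 21911 and 20700.2 at 1 µM and 18424, 20284, 20422, 20108 and 19396 at 100 µM. At 48 h the 3 groups were in order of dose with no overlap between neighbouring groups. Ndufa6 was 1.13-fold lower at 24 h (adjusted p = 0.000892, limma) and 1.19-fold lower at 48 h (adjusted p = 1.2e-05), and at 48 h 100 µM was below 1 µM (-0.12, adjusted p = 0.0295).

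Ndufc1, a small membrane-arm subunit, moved with both dose and time. Its 24 h signals were 20922, 20722, 20787, 20981 and 20875 in vehicle, 20525, 19653, 18953, 17902 and 18233 at 1 µM and 17989.7, 17354, 18688, 16288 and 16699 at 100 µM. Its 48 h signals were 17477, 16553, 17978, 16763 and 18455 in vehicle, 17205, 16903, 15535, 16704 and 16635 at 1 µM and 15143, 15378, 15323, 15009.7 and 14869 at 100 µM. Vehicle at 48 h overlapped 100 µM at 24 h. The 100 µM effect was 1.20-fold lower at 24 h and 1.15-fold lower at 48 h (adjusted p = 1.03e-05 and 0.000399, limma), and the fall with time in vehicle was 1.20-fold (adjusted p = 1.86e-05).

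Ndufa7 was called lower in 3 of the 4 comparisons with vehicle. At 24 h its signals were 15769, 16156, 14987, 15349.8 and 14952 in vehicle, 14359, 14326, 15179, 13691 and 14153 at 1 µM and 13687, 13455, 14469, 13129.9 and 13420.3 at 100 µM. At 48 h they were 14133, 14316, 14241, 13746 and 15129 in vehicle, 12914, 13388, 12517, 13354 and 12529 at 1 µM and 12808, 13224, 13579.9, 13476 and 13093 at 100 µM. At 48 h both doses lay below vehicle, and 1 µM (-0.15, adjusted p = 0.0442, limma) was about as far below vehicle as 100 µM (-0.11, adjusted p = 0.0259); the difference of 100 µM from 1 µM had a 95% interval of -0.04 to 0.11. A second probe set of Ndufa7 was lower at 100 µM by more, -0.49 at 24 h and -0.45 at 48 h (adjusted p = 0.000303 and 0.00122 over 20826 probe sets), and at 1 µM, 48 h, it read -0.00. Without 100 µM replicate 1 of 48 h the 100 µM call of Ndufa7 at 48 h was lost (adjusted p = 0.0689, limma).

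Ndufa13, a subunit also described as a cell death regulator, and Ndufb5, of the membrane arm, were called at 24 h. Ndufa13 read 18897, 20370.2, 18884, 19835 and 19033 in vehicle, 19080.1, 18596, 18401, 17169 and 17292 at 1 µM and 17584, 16507, 17087, 15971 and 17753 at 100 µM at 24 h, and 17833, 18978, 19033, 18579 and 18961 in vehicle, 18436, 18664, 17489, 18135 and 17445 at 1 µM and 16414, 18540.3, 17443, 17979 and 17597 at 100 µM at 48 h. Ndufb5 read 18114, 16639, 18215, 16468 and 17879 in vehicle, 16219, 16765, 16275, 15651 and 15266 at 1 µM and 15054, 15002, 16044, 14348 and 15051 at 100 µM at 24 h, and 17035, 17215, 17698, 16718 and 17631 in vehicle, 19360.1, 17018, 16012, 16255 and 16581 at 1 µM and 15977, 16707, 16070.0, 16466 and 15237 at 100 µM at 48 h. At 24 h the 100 µM arrays of both genes lay below vehicle (1.14-fold and 1.16-fold lower, adjusted p = 0.000383 and 0.000624, limma). At 48 h the estimates were -0.09 and -0.10 (adjusted p = 0.141 and 0.127).

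The other complex I genes called at 100 µM were Ndufa8 at both times (-0.21 and -0.20), Ndufs4, Ndufa2, Ndufs6, Ndufa12 and Ndufb10 at 24 h, and Ndufb9, Ndufa3 and Ndufb3 at 48 h. Ndufs4, an accessory subunit of the matrix arm, had the largest fall among the called members, -0.46 (SE 0.121, adjusted p = 0.00563, limma), and read -0.16 at 48 h (adjusted p = 0.434). Ndufa4l2, a Ndufa4-like gene known to be induced by hypoxia, read 2597 ± 401 in vehicle, 2122 ± 451 at 1 µM and 1916 ± 261 at 100 µM at 24 h (SD, n = 5), and 2565 ± 1009.5, 2209.9 ± 488 and 1745 ± 479 at 48 h. Its spread was wide, from 1421 to 4179 in 48 h vehicle, and the estimates of -0.43 and -0.52 were not called (adjusted p = 0.153 and 0.0896).

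In complex II, 2 of 4 genes were called lower at 24 h, where 10.4% of all genes were. At 48 h 1 was lower (2 without vehicle replicate 3 or 100 µM replicate 2, 3 or 4), where 8.62% of all genes were. Sdhd, which anchors the enzyme in the membrane, was lower at 100 µM at both times. At 24 h it read 21598, 24313, 22603, 23844 and 23609.8 in vehicle, 22472, 21501, 21655, 20129.7 and 20860.2 at 1 µM and 18941, 19394, 19439.7, 18122 and 19835 at 100 µM. At 48 h it read 21124, 20639.6, 20165, 20443 and 22409.9 in vehicle, 17716, 20072, 18499, 19214 and 19151 at 1 µM and 15394, 18065, 17734, 16977 and 17031 at 100 µM. All 100 µM arrays were below all vehicle arrays, and at 24 h below all 1 µM arrays too. Sdhd was 1.21-fold lower at 24 h (log2 -0.28, 95% interval -0.37 to -0.18, adjusted p = 1.85e-05, limma) and 1.23-fold lower at 48 h (-0.30, -0.39 to -0.21, adjusted p = 6.35e-06), and 100 µM differed from 1 µM by -0.16 and -0.15 (adjusted p = 0.0255 and 0.0175). A second Sdhd probe set was called lower at 48 h (-0.24, adjusted p = 0.0355) and read -0.09 at 24 h (adjusted p = 0.53).

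Sdha, the flavoprotein that oxidises succinate, was the only member called lower at 1 µM at 24 h. It read 10575, 9881, 9825, 10098 and 10266 in vehicle, 9115, 9169, 8665, 8498 and 8399.6 at 1 µM and 8585, 7786, 9539, 8054 and 8599.8 at 100 µM at 24 h. It read 7975, 7335, 7890.4, 7442 and 8136 in vehicle, 7683, 8139, 8126, 7857 and 8047 at 1 µM and 7416, 6987, 7394, 6970.1 and 7573 at 100 µM at 48 h. At 24 h both doses lay below vehicle and at 48 h both overlapped vehicle, vehicle itself being lower than at 24 h. The 24 h effects were 1.16-fold lower at 1 µM and 1.19-fold lower at 100 µM (adjusted p = 0.00444 and 6.18e-05, limma); at 48 h they were 0.04 and -0.09 (adjusted p = 0.796 and 0.168). The change of the effect between the times was 0.25 at 1 µM and 0.16 at 100 µM and was not called (adjusted p = 0.134 and 0.283). Sdhb and Sdhc, the iron-sulfur subunit and the other anchor, had estimates of -0.14 and -0.14 at 100 µM, 48 h (adjusted p = 0.0501 and 0.0558).

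**Figure D4:**
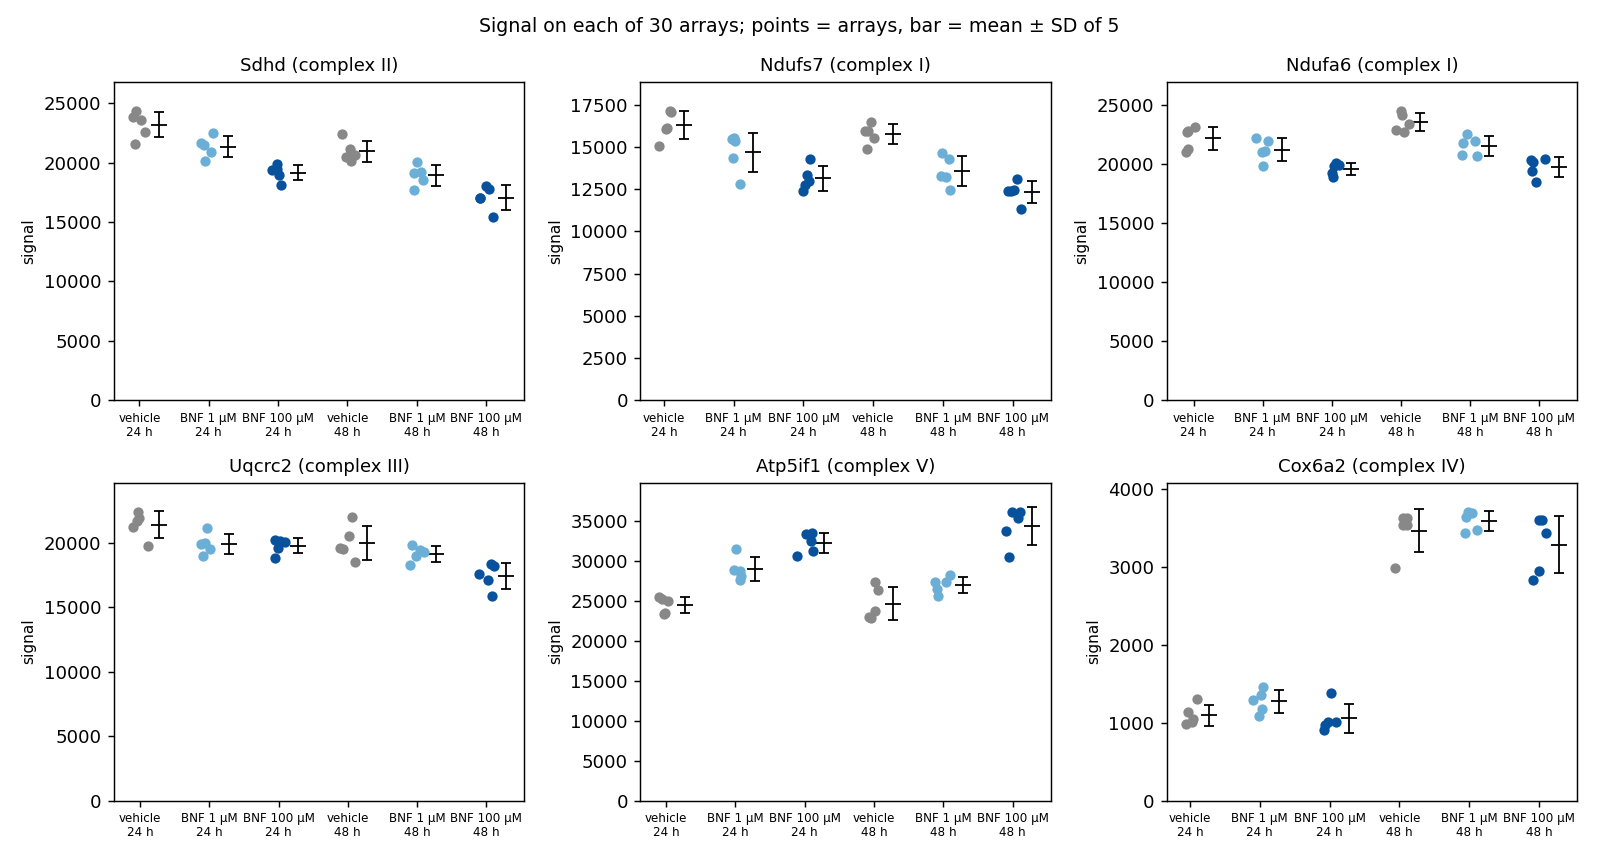
Signal on each of the 30 arrays (axes start at 0) for Sdhd, Ndufs7, Ndufa6, Uqcrc2, Atp5if1 and Cox6a2 by dose and time; points are arrays, bars the mean ± SD of 5. Sdhd, Ndufs7 and Ndufa6 are lower at 100 µM at both times and Uqcrc2 at 48 h, Atp5if1 is higher, and Cox6a2 separates by time.

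Complex III had 2 of 8 genes called lower at 24 h (Cyc1 and Uqcr11), where 10.4% of all genes were. At 48 h 3 were lower (Uqcrc2, Cyc1 and Uqcrh), where 8.62% of all genes were. All 8 estimates were below 0 at both times. Without 100 µM replicate 1 the 48 h count was 2, Uqcrh losing its call. The 24 h count was 1 without vehicle replicate 2, 3 or 4 or 100 µM replicate 2 or 5, and 0 without 100 µM replicate 4. Uqcrc2, a core protein of the complex, read 19765, 21926, 21697, 21208 and 22396 in vehicle, 21151, 19524, 19892, 18974 and 19929 at 1 µM and 19602, 20196, 20124, 18780.0 and 20065 at 100 µM at 24 h. At 48 h it read 18471, 19544, 19513, 20477 and 21966 in vehicle, 18225, 19835, 18933, 19386 and 19257 at 1 µM and 15835, 18361, 17539, 18187 and 17090.1 at 100 µM. The 48 h groups of vehicle and 100 µM did not overlap (1.15-fold lower, adjusted p = 0.00156, limma), while those at 24 h did (-0.11, adjusted p = 0.0718). Its second probe set was also called lower at 48 h (-0.28, adjusted p = 0.0111). Cyc1, cytochrome c1, which hands electrons to cytochrome c, was -0.15 and -0.20 (adjusted p = 0.0472 and 0.00887), and Uqcrfs1, the Rieske iron-sulfur protein, -0.04 and -0.09 (adjusted p = 0.691 and 0.288).

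Complex IV, cytochrome c oxidase, had 3 of 17 genes called lower at 24 h (Cox7b, Cox6b1 and Cox8a), where 10.4% of all genes were. At 48 h these were lower with Cox4i1, Cox5b and Cox7c, 6 in all, where 8.62% of all genes were. Without 100 µM replicate 1 of 48 h only Cox8a kept its call at that time, 1 of 17. The 48 h count was 3 without vehicle replicate 1 or 5 or 100 µM replicate 5, and the 24 h count was 1 without 100 µM replicate 4. Cox8a, the ubiquitous form of a small membrane subunit, read 37653, 40755, 39433, 38597 and 40166 in vehicle, 38417, 37335, 37586, 36093 and 36100.0 at 1 µM and 34941, 37527, 36789, 32473 and 35969.6 at 100 µM at 24 h. At 48 h it read 37228, 37672, 36263, 37383 and 39527 in vehicle, 35476, 36184, 32691, 35371 and 32370.4 at 1 µM and 29363, 34006, 34089.8, 33712 and 32927 at 100 µM. Neither time showed overlap between vehicle and 100 µM (1.11-fold and 1.15-fold lower, adjusted p = 0.0154 and 0.00138, limma). Cox4i1, the regulatory subunit of most tissues, was -0.17 at 48 h (adjusted p = 0.0138), and Cox5a, which binds next to it, 0.20 at 24 h and -0.03 at 48 h (adjusted p = 0.0846 and 0.85). Cox7a2l, a supercomplex factor, read -0.01 and 0.04 (adjusted p = 0.934 and 0.705), and Cox6c-ps1, annotated as a transcribed pseudogene, -0.05 and -0.28 (adjusted p = 0.863 and 0.159).

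Several cytochrome oxidase subunits have forms that replace the common one in particular tissues. Cox6a2, the heart and muscle form, rose with time in every group. At 24 h it read 1307, 979.5, 1007, 1131 and 1047 in vehicle, 1296, 1079, 1353, 1180.0 and 1463 at 1 µM and 1004, 971, 906, 1005 and 1384 at 100 µM. At 48 h it read 3538, 3536, 3627, 3628 and 2976 in vehicle, 3432, 3704, 3636, 3682 and 3464 at 1 µM and 2832, 2945, 3601, 3594 and 3427 at 100 µM. All 15 arrays of 48 h lay above all 15 of 24 h, and doses overlapped within each time. The rise from 24 h to 48 h was 3.17-fold in vehicle, 2.83-fold at 1 µM and 3.13-fold at 100 µM (adjusted p = 1.92e-13, 1.12e-12 and 1.13e-13, limma), and the gene was called at no dose against vehicle (adjusted p from 0.236 to 0.898).

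The other tissue forms were at low signal, with a wide spread between arrays. Cox7a1, the muscle form of Cox7a, read 369.9 to 567 in 24 h vehicle and 62.3 to 902 at 100 µM. Cox4i2, the lung and hypoxia form of Cox4, read 196 to 434 and 42.3 to 287 at 24 h, and 44.4 to 315 and 37.0 to 207 at 48 h. Cox6b2, the testis form, lay between 6.69 and 77.5 over all 30 arrays and Cox8b, the muscle form, between 7.22 and 38.8. Cox7b2, the testis form of Cox7b, lay between 27.8 and 377. None was called in any comparison with vehicle; for Cox4i2 the 95% interval at 100 µM was -2.24 to 0.14 at 24 h and -2.22 to 0.16 at 48 h, far wider than the intervals of the bright members.

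Complex V had 3 of 16 genes called lower at 24 h (Atp5f1b, Atp5po and Atp5f1c), where 10.4% of all genes were. At 48 h 4 were lower (Atp5po, Atp5f1b, Atp5mc3 and Atp5mk), where 8.62% of all genes were. Without 100 µM replicate 1 of 48 h only Atp5po was still called lower at that time. The 48 h count was also 1 without vehicle replicate 1 or 2 and 2 without vehicle replicate 5, and the 24 h count was 1 without vehicle replicate 2 or 3 or 100 µM replicate 4 or 5. Atp5f1b, the catalytic beta subunit of the F1 head, was -0.25 and -0.17 (adjusted p = 0.000845 and 0.0276, limma), and its partner Atp5f1a, the alpha subunit, -0.15 and -0.15 (adjusted p = 0.0647 and 0.0666). Atp5po, the stalk protein that gives oligomycin sensitivity, was -0.16 and -0.20 (adjusted p = 0.0278 and 0.00428). A second, much dimmer Atp5po probe set read 0.09 at 24 h and -0.40 at 48 h (adjusted p = 0.869 and 0.354 over 20826 probe sets, limma). With the mean of its probe sets in place of the brightest, Atp5po lost its call at both times. Without Atp5if1, the median over the 15 subunits was -0.07 at 24 h and -0.14 at 48 h.

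Atp5if1, which encodes the ATPase inhibitory factor that blocks ATP hydrolysis when the proton gradient collapses, went the other way. Its signals at 24 h were 25527, 25193, 25002, 23348 and 23490.3 in vehicle, 28746, 28155, 31474, 27598 and 28787 at 1 µM and 31239, 33394, 33419, 30608 and 32439 at 100 µM. At 48 h they were 27337, 26339, 22930.0, 23693 and 22853 in vehicle, 26479, 27364, 28159.8, 27362 and 25545 at 1 µM and 30476, 36053, 35396, 33719.5 and 36146 at 100 µM. At 24 h both doses stood above all vehicle arrays, and at 48 h the 100 µM arrays stood above all others. At 100 µM the gene was 1.31-fold higher at 24 h (log2 0.39, 95% interval 0.29 to 0.50, adjusted p = 8.52e-07, limma) and 1.40-fold higher at 48 h (0.48, 0.37 to 0.59, adjusted p = 2.07e-08). At 1 µM it was 1.18-fold higher at 24 h (adjusted p = 0.00509) and read 0.13 at 48 h (adjusted p = 0.274).

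The annotation gives Atp5if1 a further pair of probe sets, both dimmer, and neither was called higher at 100 µM. At 100 µM they read 0.11 and 0.29 at 24 h (adjusted p = 0.469 and 0.343 over 20826 probe sets, limma) and 0.05 and 0.49 at 48 h (adjusted p = 0.836 and 0.0771). All 4 estimates were above 0 and none was called. At 48 h the brighter of the pair, at 0.05 (SE 0.092), lay far below the 0.48 of the chosen set, and the dimmer did not. With the mean of all its probe sets in place of the brightest, Atp5if1 was still called at 100 µM at both times and lost its call at 1 µM, 24 h (adjusted p = 0.0594, the highest over its alternatives, from 0.000847).

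At 1 µM few members were called. At 24 h these were Sdha, lower, and Atp5if1, higher, 2 of 80 where 4.3% of all genes were called, 2.4% lower and 1.91% higher. At 48 h they were Ndufa7 and Ndufs7, both lower, 2 of 80 where 0.809% of all genes were called, 0.521% lower and 0.288% higher. Ndufs7 was 1.16-fold lower at 48 h (adjusted p = 0.0458, limma), without overlap between the groups. The 1 µM arrays did not overlap vehicle for 4 members lower and 1 higher at 24 h (2.85% and 2.35% of all genes) and for 6 lower and 0 higher at 48 h (1.07% and 1.55%). The 48 h calls were close to the threshold: leaving out vehicle replicate 1, 2, 3 or 5 or 1 µM replicate 1, 3, 4 or 5 left 0 members called. Estimates were below 0 for 62 members at 24 h and 67 at 48 h, with medians of -0.05 and -0.08, where the medians of all genes were 0.03 and 0.03. Above the 90th percentile of gene means, 1 of 65 members (1.54%) and 11.6% of the 1350 other genes were called at 24 h, and 2 members (3.08%) and 2.81% of the others at 48 h. Medians over these bright members were -0.05 and -0.09, and over the other bright genes 0.01 and -0.03, with 606 and 876 of the 1350 below 0. Comparisons of 1 µM and 100 µM with vehicle share their vehicle arrays.

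Set directly against 1 µM, 100 µM left 5 members lower at 24 h (Ndufs8, Ndufa8, Ndufa12, Sdhd and Ndufc1), where 7.72% of all genes were called, 4.57% lower and 3.14% higher. At 48 h 9 were lower (Ndufs8, Ndufs3, Atp5po, Ndufa12, Sdhd, Uqcrc2, Sdha, Ndufc1 and Ndufa6) and Atp5if1 was higher (1.27-fold, adjusted p = 1.21e-05, limma), where 14% of all genes were called, 7.39% lower and 6.57% higher. The further pair of Atp5if1 probe sets read -0.06 and 0.04 in this comparison at 48 h (adjusted p = 0.769 and 0.942 over 20826 probe sets, limma). Of the 80 members 6.25% were called at 24 h, all lower, and at 48 h 11.2% were lower and 1.25% higher. The differences of these shares from all genes were not tested. At 24 h the count of members came to 2 without 1 µM replicate 1 or 100 µM replicate 4, to 3 without 1 µM replicate 2 or 3 or 100 µM replicate 5, and to 8 without 1 µM replicate 4. The 48 h count came to 3 without 1 µM replicate 2, to 5 without 100 µM replicate 5 and to 6 without 1 µM replicate 1 or 4 or 100 µM replicate 1. With arrays centred on their median, 0 were called at 24 h, and at 48 h 0 were lower and 2 higher.

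The effects of 100 µM at 24 h and at 48 h come from separate arrays, and they resembled each other gene by gene. Over the 75 members above the median gene mean, the log2 fold changes of the 2 times had a Pearson correlation of 0.71 across genes, as a description, and over all 7102 genes above it 0.81; 67 of the 75 were below 0 at both times. In all, 15 members were called lower at both times and Atp5if1 higher at both, 10 were called at 24 h alone and 11 at 48 h alone, and no member was called in opposite directions. A call at a single time does not show a difference between the times: by limma's interaction test 0 of 80 members differed at either dose, where 0.0914% of all genes did at 1 µM and 0.788% at 100 µM, and at an unadjusted p under 0.05 the counts were 3 and 2 members. Every alternative setting also gave 0.

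**Figure D5:**
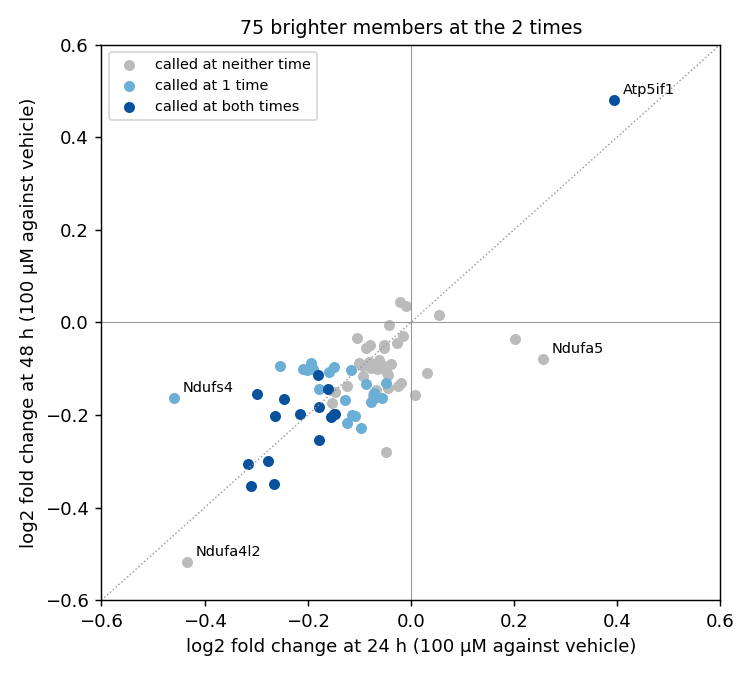
log2 fold change of 100 µM BNF against vehicle at 24 h (x axis) and 48 h (y axis) for the 75 members above the median gene mean; colours give the number of times a gene was called and the dotted line marks equal change. Most points lie in the lower left, where both changes are below 0, and Atp5if1 lies farthest to the upper right.

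Of the 80 members, 37 were called in at least 1 comparison with vehicle and 43 in none. Of the 10 arrays compared at 48 h, leaving out replicate 1 of the 100 µM group lowered the 100 µM count the most: without that array 15 members were lower and 1 higher, 16 in place of 27. The 12 calls lost without it were Cox4i1 (adjusted p = 0.0606 without it, limma), Ndufa7 (0.0689), Ndufv1 (0.0765), Cox6b1 (0.091), Cox7b (0.091), Atp5mk (0.0977), Atp5f1b (0.111), Cox7c (0.135), Ndufv2 (0.136), Uqcrh (0.154), Atp5mc3 (0.178) and Cox5b (0.184), all still with estimates below 0. Ndufa12 gained a call without that array (-0.16, adjusted p = 0.0466, limma). At 24 h, leaving out any array gave 19 to 28 calls. Those that at least 1 of the 10 arrays could end were the calls of Cox8a (100 µM replicate 4, adjusted p = 0.0708 without it), Ndufb10, Uqcr11, Cox7b, Atp5po, Cyc1 and Atp5f1c, whose highest adjusted p with 1 array left out were 0.0725, 0.0784, 0.0808, 0.0845, 0.165 and 0.168.

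Some members were lower at 48 h than at 24 h without BNF. In vehicle 6 were lower at 48 h than at 24 h and 1, Cox6a2, was higher, where 17.2% of all genes were called, 8.6% lower and 8.64% higher. Ndufv3, an accessory flavoprotein subunit of complex I, was 1.33-fold lower (adjusted p = 8.56e-05, limma) and Sdha 1.31-fold lower (adjusted p = 1.29e-07), followed by Ndufc1, Ndufs1, Sdhd and Ndufa7. At 1 µM 16 were lower and 1 higher, where 13.5% of all genes were called (6.72% lower, 6.82% higher), and at 100 µM 11 were lower and 1 higher, where 17.1% were (8.26% lower, 8.89% higher). Ndufv3, Sdha, Ndufc1 and Sdhd were lower and Cox6a2 higher in all 3. In vehicle the second Sdhd probe set read 0.08 from 24 h to 48 h, against -0.15 for the chosen set, and was not called (adjusted p = 0.59, limma). Second probe sets of Ndufv3 and Ndufa7 read -0.46 and -0.08 in vehicle (adjusted p = 0.00242 and 0.69 over 20826 probe sets, limma). The vehicle count came to 4 without 48 h replicate 4, and the 1 µM count came to 10 without 24 h replicate 1, 9 without replicate 3 of either time and 8 without 48 h replicate 5.

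Lists of other mitochondrial genes were read in the same comparisons. At 100 µM 10.4% of all genes were called lower and 10.7% higher at 24 h, and 8.62% and 8.79% at 48 h. Of 16 genes of pyruvate dehydrogenase and the citric acid cycle, which supply NADH and succinate, 8 were called lower and 1 higher at 100 µM at 24 h, and 5 lower and 1 higher at 48 h, with medians of -0.17 and -0.11. Pdhb, a subunit of pyruvate dehydrogenase, was 1.33-fold lower at 24 h and 1.34-fold lower at 48 h (adjusted p = 1.47e-08 and 7.36e-09, limma), and it was called at 1 µM as well (adjusted p = 1.66e-05 and 0.00786). Idh3g, of the NAD-dependent isocitrate dehydrogenase, was 1.38-fold and 1.46-fold lower, and Suclg1, of succinyl-CoA ligase, 1.44-fold lower at 24 h (adjusted p = 2.72e-07).

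Of 19 genes for electron carriers, ubiquinone synthesis and other entry points, 7 were lower and 2 higher at 24 h, and 6 lower and 0 higher at 48 h, with medians of -0.16 and -0.08. Etfdh, which passes electrons from fatty acid oxidation to ubiquinone, was 1.52-fold lower at 24 h and 1.68-fold lower at 48 h (adjusted p = 1.88e-05 and 6.78e-07, limma). Prodh, proline dehydrogenase, was 2.92-fold and 2.15-fold lower (adjusted p = 7.79e-07 and 0.000132). Etfb, a subunit of the electron transfer flavoprotein that Etfdh oxidises, was 1.39-fold and 1.27-fold lower (adjusted p = 1.59e-06 and 0.000185).

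Of 44 assembly factors, which build the complexes without being part of them, 5 were lower and 5 higher at 24 h and 4 and 5 at 48 h, with medians of 0.03 and 0.00. Surf1, a cytochrome oxidase assembly factor, was 1.16-fold higher at 24 h and 1.27-fold higher at 48 h (adjusted p = 2.76e-05 and 7.63e-09, limma). Acad9, needed for complex I, and Cox17, a copper chaperone, were 1.19-fold and 1.24-fold higher at 48 h (adjusted p = 0.000184 and 0.00025). Of 73 mitochondrial ribosomal protein genes, 3 were lower and 11 higher at 24 h and 4 and 5 at 48 h; Mrps18b and Mrpl55 were 1.22-fold and 1.23-fold higher at 24 h and Mrps21 1.18-fold lower at 48 h. Of 22 import and chaperone genes 1 was lower and 1 higher at 24 h and 1 and 2 at 48 h, among them Tomm70, an import receptor, 1.13-fold and 1.15-fold higher. All genes stood at 21.1% and 17.4% called in these comparisons, and the difference of the lists from the subunits was not tested.

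Of 22 regulators of mitochondrial biogenesis and of mitochondrial DNA, 4 were lower and 4 higher at each time. Esrrg, an estrogen-related receptor with a dim probe set (percentile 31.1 of gene means), was 2.88-fold lower at 24 h and 2.04-fold lower at 48 h (adjusted p = 1.19e-07 and 7.03e-05, limma). Yy1 was 1.15-fold and 1.11-fold higher (adjusted p = 0.000317 and 0.0057, limma). The part of either gene in the members' changes was not tested. Polg2, the accessory subunit of the mitochondrial DNA polymerase, was 1.80-fold and 1.87-fold lower (adjusted p = 2.86e-06 and 9.88e-07). Tfam, which packages and transcribes mitochondrial DNA, was 1.23-fold and 1.22-fold higher (adjusted p = 1.02e-05 and 3.19e-05).

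Across the 30 arrays most members moved together, as described by correlations that share array, scaling and groups. The correlation of each of the 75 brighter members with the mean of the others had a median of 0.75, from -0.51 for Atp5if1 and -0.46 for Cox6a2 to 0.95 for Cox8a. With group means removed the median was 0.67, Atp5if1 was at 0.47 and Cox6a2 at -0.00. Genes outside the list whose log2 signal followed the members' mean most closely over 30 arrays were Ddt (r = 0.93), Inhca (0.90), Scp2 (0.90), Rbp4 (0.90) and Smdt1 (0.89). With group means removed they were Ddt (0.91), Urah (0.90), Ppib (0.88), Ifi27l2b (0.86) and Mif (0.86).

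Some markers of hepatocytes and of other liver cells were called at 100 µM too. Of all genes 10.4% were called lower and 10.7% higher at 24 h, and 8.62% and 8.79% at 48 h. The difference of the marker counts from these shares was not tested. Of 11 hepatocyte markers, 5 were lower at 100 µM at 24 h and 7 at 48 h (Cyp2e1 2.00-fold and 2.24-fold), and their summed signal was 482134 to 540534 in 24 h vehicle, 414155 to 532567 at 100 µM, 415903 to 493758 in 48 h vehicle and 321647 to 395953 at 100 µM. The summed signal of 13 stellate cell markers was 11422 to 18313 in 24 h vehicle and 8056 to 9286 at 100 µM, with 3 called lower, and 6284 to 11861 and 5280 to 6277 at 48 h, with 2 called lower. Those called at both times were Vim (mean signal 5518 in vehicle and 1654 at 100 µM at 24 h, 3146 and 538 at 48 h) and Lox (5233 and 2069, then 1365 and 513). The list's median log2 fold change was -0.17 at 24 h and 0.21 at 48 h, opposite in sign to the change of the sum at 48 h. The other 11 stellate markers were not called at 48 h; Des, Col1a2, Col3a1, Acta2, Timp1 and Dcn were among those with a higher mean at 100 µM. Of 13 Kupffer cell markers 1 was higher at 24 h and 2 were lower at 48 h, with sums of 23461 to 27496 and 26578 to 30345 at 24 h, and 19772 to 21950 and 16330 to 17572 at 48 h. Of 10 endothelial and 7 cholangiocyte markers 0 were called at 24 h and 1 each lower at 48 h, and of 9 lymphocyte markers 0 at either time. No marker was listed at 0. Among Kupffer cell markers, the highest group means were 16084 for Cd14, 4682 for Lyz2, 1654 for C1qc, 1056 for Clec4f, 210.1 for Ptprc and 98.2 for Adgre1, and among cholangiocyte markers 11792 for Epcam, 57.5 for Krt19 and 14.7 for Krt7. Sums at 24 h vehicle and 100 µM, then 48 h vehicle and 100 µM, were 1920 to 2599, 2239 to 3135, 1327 to 2273 and 1387 to 2426 for endothelial cells. For cholangiocytes they were 10940 to 12254, 10971 to 12070, 12218 to 13864 and 9912 to 10300.2, and for lymphocytes 1634 to 1871, 1666 to 2266, 1568 to 2025 and 1397 to 2067. Most of the cholangiocyte sum was Epcam alone, with group means of 11792 in 48 h vehicle and 9194 at 100 µM, 48 h. In these bulk samples fewer cells of a type and less RNA per cell cannot be told apart, and the part of these markers in the members' changes was not tested.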

How the data were processed

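RNA of 30 samples was hybridised to Affymetrix rat arrays. For each probe set the authors deposited a linear-scale intensity from MAS5, per the submitters' processing notes (no version given). Each array's mean after trimming 2% at both ends was 1500.5 to 1500.6. The 31099 probe sets were taken as log2 with no added constant and no further normalization. Probe sets annotated to several genes were left out, 7 of them naming a gene of these families (Atp5mc1, Atp5mc2, Cox7a2, Uqcrb, Ndufs5, Ndufa10 and a Cox5a set), as were mitochondrially encoded subunits, not analysed here; 8 members had over 1 probe set. A mean per group was fitted to 14217 genes over all 30 arrays with limma 3.58.1 (R 4.3.3; lmFit and eBayes with trend, 24 residual degrees of freedom), with Benjamini-Hochberg adjustment across the 14217 genes within each of 11 contrasts; called means adjusted p under 0.05. The fit was tested on simulated data with genes drawn independently. That cannot show how stable the counts are over members that move together. Precision is limited by 5 arrays a group. The table held 0 other columns of per-sample values.

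Every array value is given for the 12 members with the smallest adjusted p against vehicle, the best of each complex without one, and Cox6a2; 7 tissue or stress isoforms, where measured, were to be named whatever their values. For other lists up to 3 called genes are named, and Yy1 in addition, as its letters were searched in promoters. The members and lists were chosen with earlier results of these data known. Members are not independent replicates. Alternatives tried were quantile normalization, centring arrays on their median, leaving out dim genes, adding 50 before log2, fitting only the groups compared, eBayes without trend, averaging a gene's probe sets, leaving out each array and, added after seeing the data, a block for runs of 6 title numbers. Promoter and start annotation came from RefSeq tables of build GRCr8; no genome was used.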

Additional observations from a re-analysis of the deposited data

Results flagged for a closer look

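In 120 groups of 5 arrays (20 members in 6 groups), 7 held an array farther from the others than Dixon's limit allows; chance gives about 5% of groups. At 100 µM, 48 h, replicate 1 was the lowest for Cox8a (29363, next 32927) and Ndufv1 (8719, next 9307). Ndufs3 was lowest on 1 µM, 48 h, replicate 3 (7857, next 8978). Cox6a2 was highest on 100 µM, 24 h, replicate 5 (1384, next 1005) and lowest on vehicle, 48 h, replicate 5 (2976, next 3536). Among dim isoforms, Cox4i2 was lowest on 1 µM, 24 h, replicate 5 (58.0, next 237) and Cox7a1 on 100 µM, 24 h, replicate 5 (62.3, next 554).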

How the results depend on the processing

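Leaving out each array in turn gave these counts of called members: at 1 µM against vehicle 2 to 3 at 24 h and 0 to 3 at 48 h, at 100 µM 19 to 28 and 16 to 30, at 100 µM against 1 µM 2 to 8 and 3 to 11, and for 48 h against 24 h 4 to 8 in vehicle, 8 to 20 at 1 µM and 9 to 17 at 100 µM. Centring arrays on their median gave 14 at 100 µM, 48 h (in place of 27), 0 and 2 for 100 µM against 1 µM at 24 h and 48 h (5 and 10), 4 for vehicle over time (7) and 4 for 100 µM over time (12). Of all 14217 genes, 2466 were called at 100 µM, 48 h, with centring and 2475 without it. Quantile normalization gave 14 and 17 for 100 µM against 1 µM. Fitting only the groups compared gave 17 at 100 µM, 48 h, 0 at 1 µM, 48 h, and 2 for 100 µM against 1 µM at 24 h. eBayes without trend gave 0 at 1 µM, 48 h, 2 for 100 µM against 1 µM at 24 h and 11 for 1 µM over time (17). Leaving out dim genes gave 4 at 1 µM, 24 h, and 11 for 100 µM against 1 µM at 24 h. Averaging probe sets gave 1 at 1 µM, 24 h, and 0 at 1 µM, 48 h. The cause of these shifts was not tested, apart from the fewer arrays or genes entering some fits. At 100 µM, 24 h, every alternative gave 19 to 35 called. None of the 57 called estimates of named members against vehicle changed sign; 23 of all 172 such estimates did in at least 1 alternative, uncalled on both sides (adjusted p at least 0.151). Centring also moved the share of higher genes among all called genes: from 44.3% to 32.6% at 1 µM, 24 h, from 35.7% to 16.2% at 1 µM, 48 h, from 47.1% to 71.7% for 100 µM against 1 µM at 48 h, and from 51.8% to 63.3% for 100 µM over time. The labels give no replicate numbers, but runs of 6 consecutive title numbers each hold 1 array of every group. A fit with these runs as a replicate block (chosen after seeing the data, 20 residual degrees of freedom) gave 0 called at 1 µM, 48 h, in place of 2, and 25 and 30 at 100 µM; all other counts were within 1.5 times. Deviations of arrays of the same run had a median r of 0.03 over 75 pairs, with r over 0.1 for 23. For 300 pairs of different run and group the median r was -0.01. Of 30 arrays, 14 correlated best with their own run. Whether arrays of a run belong together was not tested further.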
